A study of Mus musculus with 3 samples.

Results

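The ETS and SOX families of transcription factors were described in endothelial cells sorted from glomeruli, the filtering capillary tufts of the kidney, of adult mice. Members were the genes whose symbols belong to the ETS or the SOX family by a list of names, without use of any measured value, and whose probe set names 1 gene. This gave 44 genes with 47 probe sets (25 ETS genes with 28 probe sets and 19 SOX genes with 19) of 19938 genes with 21789 such probe sets in all. Fev, the remaining ETS gene of the list, had no probe set that names it alone and was not analysed here.

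ETS factors share a winged DNA-binding domain that reads the core letters GGAA, and differ in the sequence around that core, in their partners and in whether they activate or repress. Several are known from endothelium: Etv2 starts the endothelial programme in the embryo, and Erg, Fli1 and Ets1 act on genes of junctions, adhesion and growth factor receptors in formed vessels. SOX factors bend DNA through a high mobility group box and read an AACAAT-like motif. The F subfamily (Sox7, Sox17 and Sox18) is the one known for arterial, venous and lymphatic endothelium.

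Cells came from adult mice of mixed background, primarily CD-1, that carry the transgene Tg(TIE2GFP)287Sato, in which green fluorescent protein is made under the promoter of Tek (Tie2), an endothelial receptor. The kidneys were untreated, cortical glomeruli were retained on a sieve and dissociated, and GFP-positive cells were sorted. There were 3 arrays, replicates 1, 3 and 5, each from 1 kidney that was not pooled, and all belong to 1 group without a control group. A Tek promoter is also active in some blood cells, and each p-value rests only on the spread of these 3 arrays. The study states that its samples of each cell population were biologically independent, and the labels do not name the animals.

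The sorted cells carried the markers of their label. All 10 endothelial markers were above the detection level explained below, with means of 7.63 to 12.54 on the log2 scale. None of 9 leukocyte, 7 platelet and red cell, 8 mesangial and smooth muscle, 8 distal nephron or 6 neural crest and glial markers was above it. Of the podocyte markers, 1 of 6 was above (Podxl, 9.86, which endothelium also makes) and 5 were below. Of the proximal tubule markers, 1 of 8 was above (Aqp1, 8.25) and 7 were below. Over all genes, 14.9% were above and 73.8% below. Few calls above in such short lists therefore cannot show that these other cells were absent. A longer list of endothelial genes, given further on, had 15 of 20 above. Of the rest, Vwf was below (mean 5.33), and Robo4, Nos3, Cldn5 and Clec14a were neither. Array medians over all 35557 probe sets were 4.79 to 4.85.

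Values are log2 signals per probe set. Each gene was compared with a signal of 100 (6.64 on the log2 scale), called the detection level. The number is that of the study's filter, which removed probe sets whose raw signal did not reach it in several samples. Here it was instead set against the mean of each gene in the deposited values. Whether 100 marks the same point on both scales was not tested. A gene is called above or below where limma's moderated test of its mean against the detection level gave an adjusted p under 0.05. Otherwise it is called neither. Olfactory receptor probe sets had a 95th percentile of 28.9 on the linear scale. A call below the detection level therefore does not mean that a transcript was absent. Signals of different probe sets depend on their probes, so genes are set against the level and not against each other.

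Of the 25 ETS genes, 9 (36%) were above the detection level, 12 were below and 4 were neither, where 14.9% of all genes were above, 73.8% below and 11.3% neither. Of the 19 SOX genes, 3 (15.8%) were above, 15 were below and 1 was neither, a share above that was near the background. The median level was 5.84 over ETS genes, 5.63 over SOX genes and 5.02 over all genes. A low signal in sorted cells cannot tell fewer cells with a transcript apart from less of it in each cell. The counts depend on the level chosen. At a level of 200, 5 ETS and 1 SOX genes were above, with 7.39% of all genes. At the level of olfactory receptor probe sets, whose 95th percentile was 28.9 on the linear scale, 15 ETS and 10 SOX genes were above, with 43.9% of all genes. Without 1 of the arrays, 8 to 9 ETS and 3 SOX genes were above, with 13.9% (without replicate 1 or 5) and 15.8% (without replicate 3) of all genes.

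**Figure D1:**
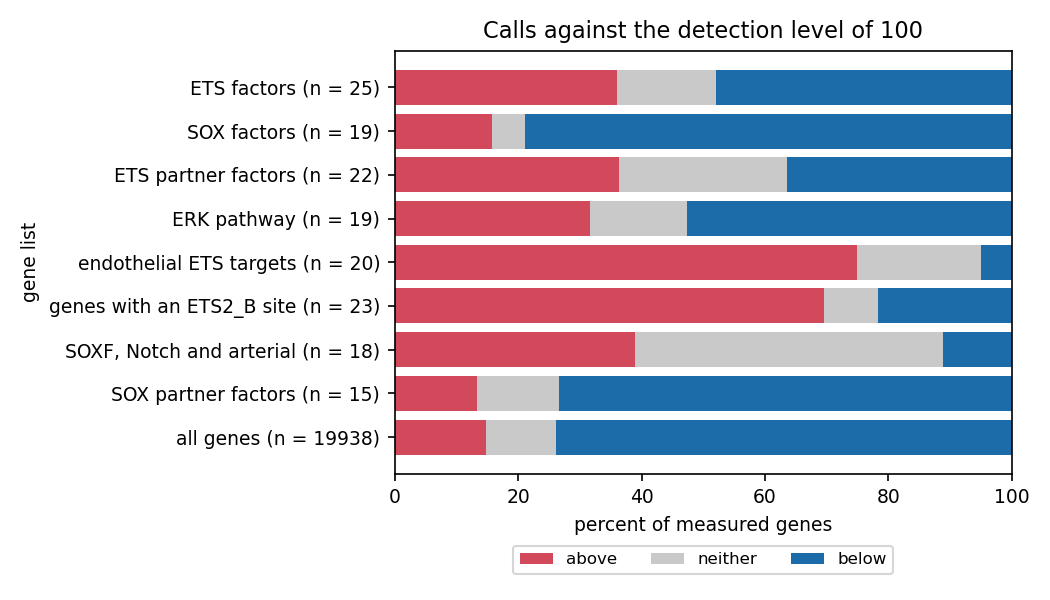
Percent of measured genes (horizontal axis) above (red), neither (grey) or below (blue), relative to the detection level of 100, for ETS factors, SOX factors, the 6 lists of partners, pathway genes and targets, and all genes. ETS factors were above in 36% and SOX factors in 15.8%, beside 14.9% of all genes.

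Both ERG subfamily genes measured here, without Fev, were above the level on every array. Erg, which holds endothelial identity and junctions, had 8.49, 8.64 and 8.65 on replicates 1, 3 and 5 (mean 8.59 ± 0.09 SD, n = 3, limma adjusted p = 0.000193). Fli1, its closest relative and a factor of blood and vessel cells, had 9.21, 9.28 and 9.28 (9.26 ± 0.04 SD, n = 3, limma adjusted p = 8.75e-05). For both genes the arrays lay close together and replicate 1 was the lowest.

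Both members of the ETS subfamily proper were above as well. Ets1, known from lymphocytes and from sprouting endothelium, had 7.81 on each array (limma adjusted p = 0.000866). Ets2, its paralog and a target of ERK phosphorylation, had 8.52, 8.52 and 8.60 (8.54 ± 0.05 SD, n = 3, limma adjusted p = 0.000188). An identical value on all arrays, as for Ets1, is not a measurement without error. It was found for 10 of 25 ETS genes, 12 of 19 SOX genes and 55.2% of all genes.

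The ternary complex factors bind beside serum response factor and are switched from repression to activation by ERK. Elk3, the member known from vessel growth, was above on every array, at 9.13, 9.15 and 9.32 (9.20 ± 0.10 SD, n = 3, limma adjusted p = 0.0001). Elk4 was also called above but with wide spread, at 7.74, 6.85 and 7.26 (7.28 ± 0.44 SD, n = 3, limma adjusted p = 0.0457). The Elk4 call was lost without replicate 1 (adjusted p = 0.0997), without replicate 5 (adjusted p = 0.108) and with limma's usual variance prior (adjusted p = 0.0865). Elk1 lay on both sides of the level, at 7.08, 6.27 and 6.48 (6.61 ± 0.42 SD, n = 3, limma adjusted p = 0.875). Elk1 and Elk4 were both highest on replicate 1 and lowest on replicate 3, which was not so for Elk3.

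Gabpa, the DNA-binding subunit of the GA-binding protein that acts on promoters of mitochondrial and other widely used genes, had 9.34, 9.34 and 9.52 (9.40 ± 0.10 SD, n = 3, limma adjusted p = 8.57e-05). In the ELF subfamily, Elf1, known from lymphocytes and from the Tek promoter, was above at 7.47, 7.51 and 7.52 (7.50 ± 0.03 SD, n = 3, limma adjusted p = 0.00258). Elf2, also known from Tek, was called neither, at 6.78, 6.69 and 6.69 (6.72 ± 0.05 SD, n = 3, limma adjusted p = 0.556). Elf4, a factor of lymphocyte quiescence, was below in both of its probe sets, at 5.73 on each array in one and 4.60 on each array in the other. The 3 ELF genes thus had 1 call of each kind.

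The repressors of the family that ERK controls were split. Etv3 was above, at 7.84, 7.78 and 7.21 (7.61 ± 0.35 SD, n = 3, limma adjusted p = 0.00773), with replicate 5 the lowest. Erf had 6.58 on each array, close to the level (limma adjusted p = 0.649). With limma's usual variance prior, in which identical values count as exact, Erf was called below (adjusted p = 0.000241), 0.06 under the level on the log2 scale.

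Etv6 (Tel), a repressor needed for yolk sac vessels and blood stem cells in mouse, was below the level and differed over 2-fold between arrays. Its values were 4.72, 5.31 and 5.95 (5.33 ± 0.62 SD, n = 3, limma adjusted p = 0.0108), a spread of 1.24 between the lowest and the highest array. All 3 values lay under the level.

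Etv2, which specifies endothelial and blood cells in the embryo and is shut down later, had 4.71 on each array and was below. Tested against the olfactory receptor level of 4.85 it was neither above nor below (adjusted p = 0.304).

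The PEA3 subfamily (Etv1, Etv4 and Etv5), known as readouts of FGF and RET signalling, had no gene above. Etv1 was the other member that differed over 2-fold between arrays, at 5.83, 5.16 and 6.55 (5.84 ± 0.69 SD, n = 3, limma adjusted p = 0.066). Its other probe set was lower on every array, at 3.51, 3.18 and 4.47, and was called below (limma adjusted p = 0.000866). Both probe sets had replicate 5 as the highest array and replicate 3 as the lowest, with ranges of 1.39 and 1.28. The mean over both probe sets was called below (adjusted p = 0.00446), as was the mean of replicates 1 and 3 without replicate 5 (adjusted p = 0.0166). Etv5 was below in both probe sets, at 5.06, 5.25 and 5.06 in one and 4.12, 4.07 and 4.25 in the other, and Etv4 was below with a mean of 4.80.

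The SPI subfamily, known from myeloid and B cells, and the epithelial ETS factors were all below. Spi1 (PU.1), the factor of macrophages and B cells, had 4.72 on each array. Spib, known from B and plasmacytoid dendritic cells, and Spic, known from red pulp macrophages, had means of 4.31 and 3.98. The levels of these 3 genes stand beside the 9 leukocyte markers, all below the level at means of 3.12 to 5.33. The epithelial factors Ehf, Elf3 and Elf5 had means of 3.51 to 4.16, and Spdef, known from goblet cells, had a mean of 5.64.

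**Figure D2:**
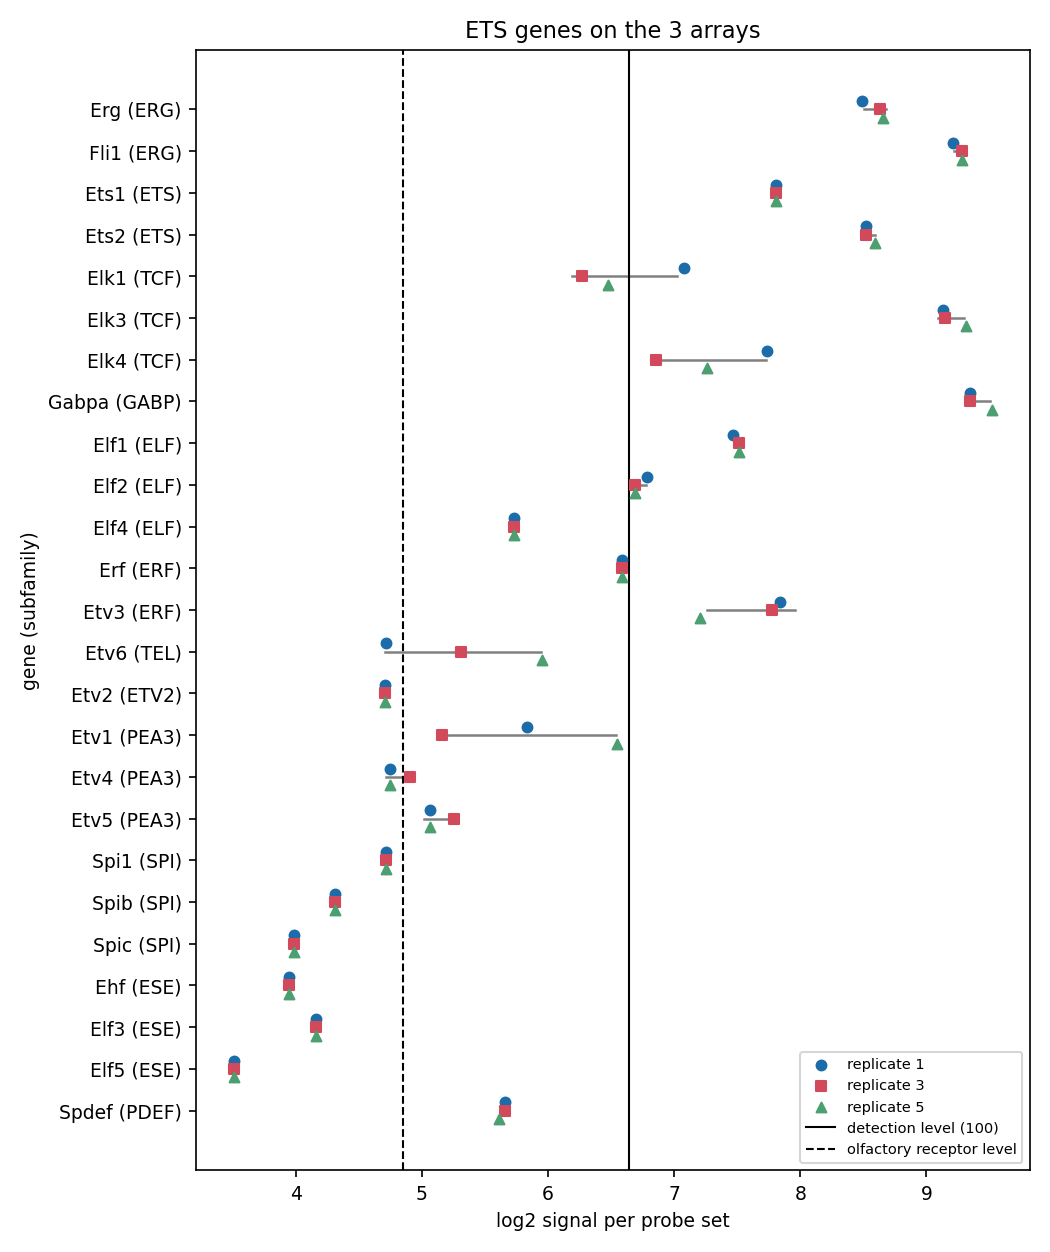
Log2 signal (horizontal axis) of the 25 ETS genes (vertical axis, with subfamily) on replicates 1, 3 and 5, shown as circles, squares and triangles, with grey lines for the mean ± SD. Erg, Fli1, Ets1, Ets2, Elk3, Gabpa, Elf1, Etv3 and Elk4 lie right of the solid line at the detection level (6.64), and the dashed line marks the olfactory receptor level (4.85).

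Among SOX genes, the F subfamily held 2 of the 3 calls above. Sox17, known from arterial endothelium, had 8.26, 8.71 and 8.22 on replicates 1, 3 and 5 (8.40 ± 0.27 SD, n = 3, limma adjusted p = 0.000631), with replicate 3 standing over the others. Sox18, known from vessels and from the start of the lymphatic lineage, had 7.92 on each array (limma adjusted p = 0.000631). Sox7 had 6.90, 6.75 and 7.33 (6.99 ± 0.30 SD, n = 3, limma adjusted p = 0.118). Every array was over the level for Sox7, but the mean was too close to it for a call. It was highest on replicate 5 and lowest on replicate 3, the array on which Sox17 was highest.

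Sox13, a member of the D subfamily known from gamma delta T cells, was the remaining SOX gene above. Its values were 7.71, 7.75 and 8.15 (7.87 ± 0.24 SD, n = 3, limma adjusted p = 0.00182), with replicate 5 the highest. The other D genes, Sox5 and Sox6, which act together in cartilage, were below with means of 4.13 and 5.67. The T cell marker Cd3e was below the level, at a mean of 4.53.

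All members of the other SOX subfamilies were below. In the C subfamily, known from progenitor cells, Sox4 had 5.15 on each array, Sox11 had a mean of 3.87 and Sox12 of 5.19. In the E subfamily, Sox9, known from cartilage and from repairing tubules, had 4.98 on each array, and Sox8 and Sox10 (Sox10 is a factor of neural crest and glia) had means of 4.95 and 5.63. The neural and pluripotency factors Sox1, Sox2 and Sox3 had means of 3.87 to 6.17, and Sox14 and Sox21 had means of 5.65 and 4.78. Sox15, known from muscle progenitors, and Sox30, known from testis, had means of 5.88 and 4.78. The call below of Sox3, the closest of these to the level, was lost where no variance was allowed under the prior (adjusted p = 0.0547), an alternative added after seeing the data.

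**Figure D3:**
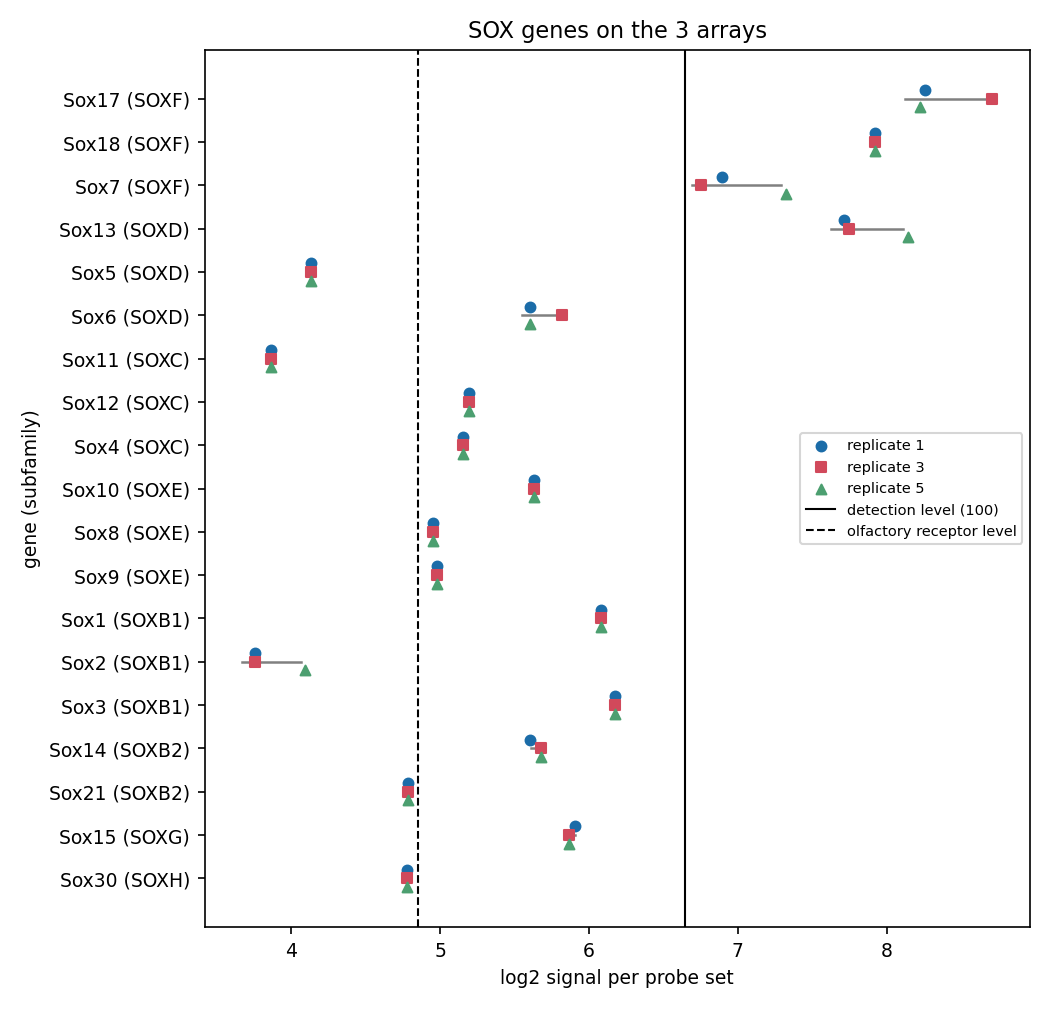
Log2 signal (horizontal axis) of the 19 SOX genes (vertical axis, with subfamily) on replicates 1, 3 and 5, shown as circles, squares and triangles, with grey lines for the mean ± SD. Sox17, Sox18 and Sox13 lie right of the solid line at the detection level (6.64), Sox7 lies close to it, and the other 15 genes lie left of it.

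Only 2 members, Etv1 and Etv6, differed over 2-fold between arrays. This is 2 of 25 ETS genes (8%) and 0 of 19 SOX genes, where 5.07% of all genes did. Of the 15 ETS genes without identical values, 5 were highest on replicate 1, 4 on replicate 3 and 8 on replicate 5, ties counted on each array. Of the 7 such SOX genes, the numbers were 1, 3 and 4. Over all 8925 genes without identical values, 37.3% were highest on replicate 1, 46.3% on replicate 3 and 41.8% on replicate 5. Both Etv1 and Etv6 depend on single arrays: 1 of them stayed over 2-fold without replicate 1, 1 without replicate 3 and 0 without replicate 5.

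Identical values on all arrays also came in shared form. Of the 44 members, 19 had on all 3 arrays exactly the values of some other probe set, and all 19 were among the 22 with identical values. Over all probe sets that name 1 gene this was so for 10343 of 21789 (47.5%). Sox4, for example, had the value of Umod, a tubule gene, and Erf that of Notch4, at 5.15 and 6.58. Such values carry no difference between the genes that share them.

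Genes with which these factors are known to work were counted in the same way. Each list stands beside all genes, of which 14.9% were above, 73.8% below and 11.3% neither, with a median of 5.02. Of the ETS partner factors, 8 of 22 were above, 8 below and 6 neither, with a median level of 6.63. Srf, the serum response factor that ternary complex factors join, was below at 5.35 on each array. Its coactivator Mrtfa was below at 4.90 on each array, and the related Mrtfb had 6.12, 8.73 and 8.28, with replicate 1 far under the others (limma adjusted p = 0.15, and 0.00249 without replicate 1). Gabpb1, which forms GA-binding protein with Gabpa, had 6.39, 5.65 and 6.34 (limma adjusted p = 0.0739). With all arrays, the DNA-binding subunits Elk3 and Gabpa were called above the level. Srf, Mrtfa, Mrtfb and Gabpb1 were called below or neither, and signals of different genes were not compared. Mrtfa and Mrtfb are on the list as coactivators of Srf, not as partners of Elk3. The 8 genes of the list above the level were Cbfb, Lmo2, Ldb1, Foxo1, Jun, Crebbp, Ep300 and Hhex.

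The kinases and feedback genes of the ERK pathway, which phosphorylates Ets1, Ets2 and the ternary complex factors, were above in 6 of 19, below in 10 and neither in 3, with a median of 6.25. Map2k1 and Map2k2, the kinases that activate ERK, were both below, with means of 5.82 and 6.29 (limma adjusted p = 0.00472 and 0.046). The Map2k2 call was lost in several alternatives, among them without replicate 1 (adjusted p = 0.0733) and without replicate 5 (adjusted p = 0.0692). The pathway inhibitor Spred2 was above at 9.44, 7.77 and 9.22 (limma adjusted p = 0.00615), lowest on replicate 3. Il17rd had 8.31, 6.70 and 7.45 (limma adjusted p = 0.0803, and 0.0124 without replicate 3), again lowest on replicate 3. Spry4 had 5.95, 5.74 and 6.93 (limma adjusted p = 0.21, and 0.0114 without replicate 5), and these 3 inhibitors were the only pathway genes of the list that differed over 2-fold between arrays.

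Endothelial genes known as ETS targets were above in 15 of 20, below in 1 and neither in 4, with a median of 9.27. All the endothelial markers given earlier except Ehd3 are on this list, so its count is not separate from theirs. The junction cadherin Cdh5 had 10.85, 10.40 and 11.01, and Tek, whose promoter drives the transgene, had a mean of 10.65 ± 0.43 (SD, n = 3). Kdr, the main receptor of VEGF, had 10.83, 9.53 and 11.18, and the coreceptor Eng had 8.91, 9.31 and 9.96. All 4 were above (limma adjusted p = 7.65e-05 for Cdh5, 0.000116 for Tek, 0.000737 for Kdr and 0.000568 for Eng). Cdh5, Tek and Kdr were lowest on replicate 3, and Eng was lowest on replicate 1, as Erg and Fli1 were.

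A further list holds genes for which the study names an ETS2_B site, a motif with the core CAGGAA, in cells of the embryo. It includes the members Erg, Ets1 and Elk3 and the endothelial markers Cdh5, Egfl7 and Flt1. As the study also chose it on other cells of the same project, it is not independent of the families or markers described here. Of its genes, 16 of 23 were above, 5 below and 2 neither, with a median of 8.59. Egfl7, a secreted vessel protein, had 9.51, 9.18 and 9.54, and Rasgrp3, an activator of Ras, had 11.47, 10.97 and 11.65 (limma adjusted p = 0.000111 and 7.21e-05). Tll1, a secreted protease, was below at 3.25 on each array. Prkch, a protein kinase C, had the widest spread of the list, at 10.84, 7.56 and 8.79 (limma adjusted p = 0.0277, and 0.0778 without replicate 5). Vamp5, a vesicle protein, had a mean of 8.59 ± 0.55 (SD, n = 3, limma adjusted p = 0.00203). Prkch and Vamp5 were lowest on replicate 3.

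The list of Notch and arterial genes that go with the SOX F subfamily also includes Sox17 and the lymphatic gene Prox1. Of its 18 genes, 7 were above, 2 below and 9 neither, with a median of 6.98. Prox1 was below, at a mean of 3.79 (limma adjusted p = 7.79e-05). The ligand Dll4 had 6.24, 6.57 and 6.24 (limma adjusted p = 0.113, and 0.0282, below, without replicate 3). The receptors Notch1 and Notch4 had 6.80 and 6.58 on each array (limma adjusted p = 0.266 and 0.649). No call was made for these 3 genes with all arrays, which does not place them at the level, and the Notch target Hey2 was below at 4.33 on each array (limma adjusted p = 0.000109). Hey2 and Prox1 are named after their values were seen.

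Arrays differed over 2-fold for 7 of these 18 genes (38.9%), where 5.07% of all genes did. The 2 shares are not alike in make-up, as genes with identical values cannot differ. Such genes were 55.2% of all genes and 22.2% of this list. Among genes above the level, 8.67% differed over 2-fold. The Notch ligand Jag1 had 6.25, 8.98 and 5.96, and the arterial connexin Gja5 had 7.37, 8.70 and 5.82. The junction gene Cldn5 had 5.94, 8.53 and 6.21, and the adhesion gene Vcam1 had 5.04, 6.75 and 5.03. All 4 were highest on replicate 3, as Sox17 was. The Notch target Hey1 was lowest there, with 6.63, 5.22 and 7.06. Of the other two genes over 2-fold, the connexin Gja4 was highest on replicate 3 (7.60, 8.90 and 8.11) and the VEGF coreceptor Nrp1 was lowest (11.43, 10.38 and 11.81). Ties counted, replicate 3 was the highest array for 7 (50%) and the lowest for 4 (28.6%) of the 14 genes of the list without identical values. Over all genes without identical values these shares were 46.3% and 44.4%. Without replicate 3, Jag1, Cldn5 and Vcam1 were called below (limma adjusted p = 0.0217, 0.0182 and 0.000438). Gja5 was called above without replicate 5 (limma adjusted p = 0.0435). Sox18 did not vary, and Sox7 was lowest on that array. The endothelial markers moved on the same array, as 9 of 10 were lowest on replicate 3 (ties counted) and 3 of 10 differed over 2-fold between arrays. One of those 3 is the glomerular endothelial gene Ehd3, with 10.60 on replicate 1, 9.51 on replicate 3 and a mean of 10.37. The part of these marker differences in the values of Sox17 and the arterial genes was not tested.

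**Figure D4:**
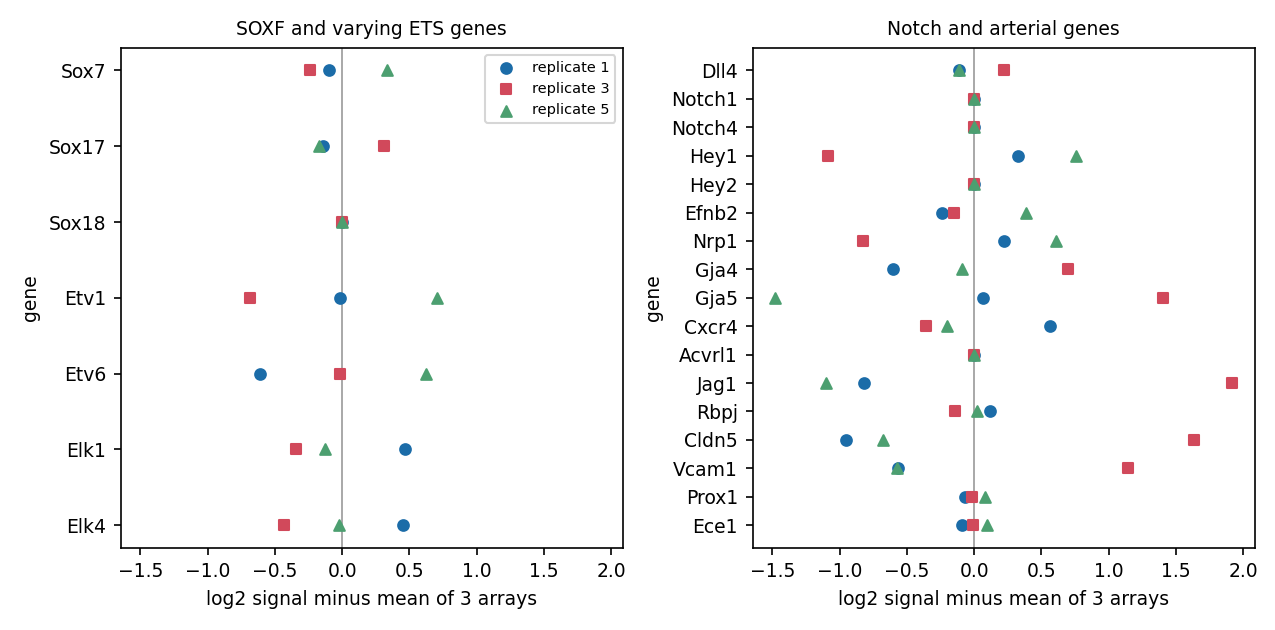
Log2 signal minus the mean of the 3 arrays (horizontal axis) for the SOX F genes and the ETS genes that vary most (left) and for the Notch and arterial genes with Prox1 (right), on replicates 1, 3 and 5 (circles, squares and triangles). Replicate 3 is the highest array for Sox17, Dll4, Jag1, Gja4, Gja5, Cldn5 and Vcam1. It is the lowest for Sox7, Etv1, Elk1, Elk4, Hey1, Nrp1, Cxcr4 and Rbpj.

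SOX partner factors were above in 2 of 15 (13.3%), below in 11 (73.3%) and neither in 2, with a median of 5.24. These shares were near those of all genes, 14.9% above and 73.8% below. Mef2c, a partner of Sox18 in mouse vessels, was above at 7.59, 7.84 and 7.84, and Ctnnb1, the beta-catenin that SOX F factors bind, at 8.86, 8.87 and 8.86 (limma adjusted p = 0.00146 and 0.00012). Rbpj, the DNA-binding factor of Notch signalling, had 6.89, 6.63 and 6.80 (limma adjusted p = 0.383). Lef1, the Wnt factor, was below at 5.59, 5.65 and 5.59 (limma adjusted p = 0.00133). Partners that act with SOX factors in neural and pluripotent cells, such as Pou5f1, Pou3f2 and Pax6, were below, with means of 3.80, 5.04 and 4.22.

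The promoters of the factors themselves were read for the motifs of both families. RefSeq windows (GRCm38.p6) were given for 33 members, as 48 windows, and for 8 of the 12 members above, as 13 windows. Fli1, Ets1, Sox17 and Sox18 were not among them. The 250 bases before each start are shown for Elk3 and Ets2, and for 2 of the 3 starts of Erg, because Erg and Elk3 are on the list with an ETS2_B site and the starts of Erg differ in their matches. Capitals mark GGAA on the strand of the gene or TTCC, the same core on the other strand.
Elk3, chr10:93311160-93311409, minus strand: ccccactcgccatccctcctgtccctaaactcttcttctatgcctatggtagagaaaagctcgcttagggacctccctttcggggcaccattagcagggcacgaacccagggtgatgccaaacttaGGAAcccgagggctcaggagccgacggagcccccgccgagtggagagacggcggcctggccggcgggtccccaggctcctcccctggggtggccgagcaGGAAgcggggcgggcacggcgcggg
Ets2, chr16:95702157-95702406, plus strand: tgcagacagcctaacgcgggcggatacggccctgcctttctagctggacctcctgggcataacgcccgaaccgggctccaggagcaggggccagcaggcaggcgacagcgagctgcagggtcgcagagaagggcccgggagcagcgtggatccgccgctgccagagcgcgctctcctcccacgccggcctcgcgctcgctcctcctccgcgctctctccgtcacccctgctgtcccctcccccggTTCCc
Erg start 1, chr16:95586594-95586843, minus strand: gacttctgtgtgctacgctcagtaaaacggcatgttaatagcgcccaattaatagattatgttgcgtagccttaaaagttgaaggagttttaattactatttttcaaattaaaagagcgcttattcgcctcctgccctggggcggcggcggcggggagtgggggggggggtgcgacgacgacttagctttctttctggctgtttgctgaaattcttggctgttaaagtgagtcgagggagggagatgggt
Erg start 3, chr16:95459349-95459598, minus strand: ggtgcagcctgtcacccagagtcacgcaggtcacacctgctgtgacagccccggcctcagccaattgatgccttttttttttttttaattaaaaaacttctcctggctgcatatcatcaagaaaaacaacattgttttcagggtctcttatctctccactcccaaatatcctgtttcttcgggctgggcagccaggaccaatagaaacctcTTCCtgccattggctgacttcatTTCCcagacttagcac

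The Elk3 window held 2 copies of the core, of which 1 lay in CAGGAA. The Ets2 window held 1 copy. Start 1 of Erg had no copy of the core, and start 3, inside the gene, had 2, of which 1 lay in CAGGAA, and 1 AACAAT on the strand opposite to the gene. Motifs were searched on both strands, and a match describes letters in the window, not a bound site.

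Over the 48 windows of members, 43 (89.6%) held GGAA, 16 (33.3%) CAGGAA, 1 (2.08%) the longer ETS motif CCGGAAGT and 3 (6.25%) AACAAT. Both longer ETS motifs contain GGAA. Over all 32851 windows of the same length the shares were 93.4%, 25.7%, 2.88% and 9.42%. Some genes gave several windows, among them Sox6 with 6 and Elk4 with 3, of which windows 2 and 3 overlap. The windows are therefore not independent, and genes with many starts weigh more. The 1 window with CCGGAAGT was window 1 of Elk4.

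The same motifs were counted over 12934 tested genes with 1 window each. CCGGAAGT was found in 7.57% of 1929 windows of genes above the detection level, in 5.43% of 1418 of genes that were neither and in 3.12% of 9587 of genes below. For CAGGAA the shares were 21.3%, 22.1% and 24.1%, and for AACAAT 5.18%, 4.72% and 9.31%. The 3 sets also differed in base composition, with a median of 61.2% G and C in windows of genes above, 60% in those of genes that were neither and 54.4% in those of genes below. The part of base composition in these shares was not tested.

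**Figure D5:**
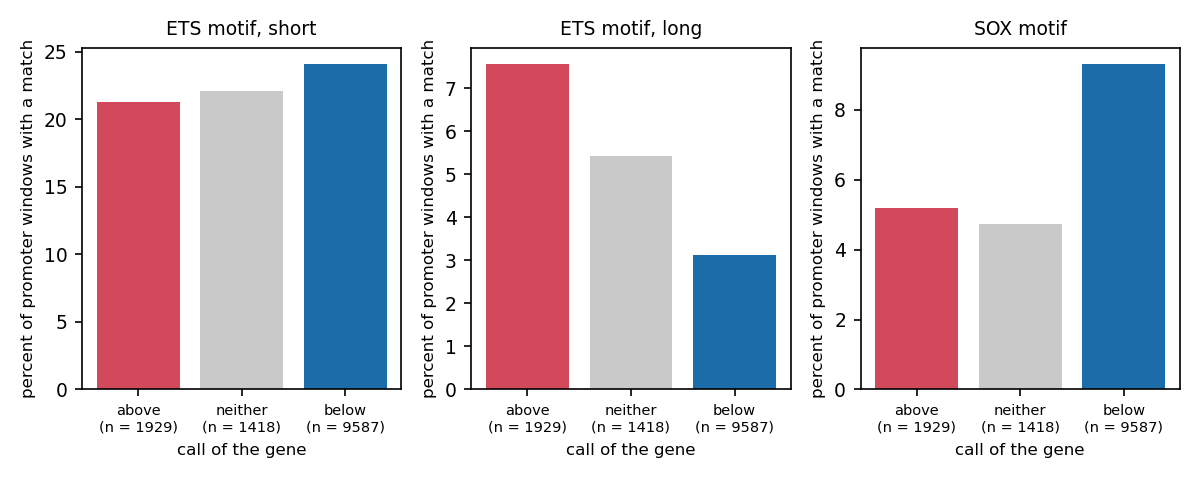
Percent of promoter windows of 250 bases with a match (vertical axes) by the call of the gene (horizontal axes), for the shorter and the longer of the 2 extended ETS motifs and the SOX motif. The longer ETS motif was in 7.57% of windows of genes above and 3.12% of those of genes below, and the SOX motif in 5.18% and 9.31%.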

How the data were processed

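RNA of the sorted cells was amplified once and read on Affymetrix Mouse Gene 1.0 ST arrays. The authors deposited 1 log2 signal for each probe set and array. The study names RMA, and the processing notes Affymetrix Expression Console. Which arrays were normalized together, and the tool's version, are not given in the sources used here. Because many values are identical between arrays, steps beyond RMA are possible, and SDs and p-values may understate the error. The number of arrays limits the precision.

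Gene names came from the annotation of the platform. Of 35557 probe sets, 21789 name 1 gene, 1621 several and 12147 none there. By Entrez identifier 21698 matched RefSeq (GRCm38.p6) with symbols unchanged. Where several probe sets stand for a gene, the one with the highest mean was used.

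All 21789 probe sets were fitted with limma 3.58.1 in R 4.3.3 (intercept only, two-sided against log2 of 100, Benjamini-Hochberg, 0.05). Because 54.1% had identical values on all arrays (within 1e-09), the variance prior came from the 4406 with 3 distinct values. A check on simulated data had pass marks only for data without identical values, so it does not cover probe sets with identical values.

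Members and lists were chosen with earlier results of these data known. Values are given for members called above or neither, those over 2-fold between arrays or with several probe sets, and 15 factors listed by name whatever their call, with other members by range and count. Of each list, the first 4 genes and up to 5 that differ over 2-fold are named. Alternatives were other levels, priors and normalizations, leaving out each array or dim probe sets, and averaging probe sets.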

Additional observations from a re-analysis of the deposited data

How the results depend on the processing

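The count of ETS genes above was 5 at a level of 200 and 15 at the olfactory receptor level, against 9 at the level of 100, and that of SOX genes was 1 and 10, against 3. Without 1 array the counts were 8 to 9 for ETS and 3 to 3 for SOX genes, and both stayed within that range under the other alternatives. Members over 2-fold between arrays numbered 2 with all arrays under both normalizations and with averaged probe sets, and 0 to 1 without 1 array, an alternative added after seeing the data.

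Directions turned mostly where the level itself moved. Differences from the level of 200, on the log2 scale, were -0.15 for Elf1, -0.92 for Elf2, -0.036 for Etv3, -0.36 for Elk4, -0.65 for Sox7, -0.16 for Il17rd, -0.75 for Cldn5, -0.84 for Notch1, -0.58 for Jag1, -0.35 for Gja5 and -0.87 for Rbpj. From the olfactory receptor level they were 0.88 for Elf4, 1.73 for Erf, 0.79 for Spdef, 0.99 for Etv1, 0.27 for Etv5, 1.75 for Elk1, 0.47 for Etv6, 1.22 for Sox1, 1.32 for Sox3, 0.80 for Sox14, 0.34 for Sox12, 0.30 for Sox4, 0.82 for Sox6, 0.78 for Sox10, 0.10 for Sox8, 0.13 for Sox9, 1.03 for Sox15, 0.49 for Srf, 0.049 for Mrtfa, 1.28 for Gabpb1, 0.97 for Map2k1, 1.44 for Map2k2, 1.35 for Spry4, 1.49 for Dll4, 1.73 for Notch4, 1.45 for Hey1, 0.75 for Vcam1 and 0.75 for Lef1. From the level of 100 without replicate 3 they were 0.13 for Elk1, -0.57 for Cldn5, 0.21 for Hey1, -0.54 for Jag1 and -0.051 for Gja5, and 0.027 for Elk1 without replicate 5. Over all such omissions they ranged from -0.27 to 0.13 for Elk1, -0.57 to 0.73 for Cldn5, -0.72 to 0.21 for Hey1, -0.54 to 0.97 for Jag1 and -0.051 to 1.39 for Gja5. With the mean over all probe sets of a gene they were -0.25 for Il17rd and -1.34 for Rbpj.

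All 44 members kept their call and direction with arrays centred on their medians, quantile normalized again or with dim probe sets left out. No paired analysis was possible because all arrays form 1 group. The cause of the changes without an array was not tested. Signals near those of olfactory receptors cannot show whether a transcript is absent, and 3 arrays limit the precision.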
